A study of Mus musculus with 8 samples.

Results

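The genes described here are the Wnt signalling genes of the mouse: the Wnt ligands, the frizzled receptors with their co-receptors, the secreted antagonists, 3 cytoplasmic components and the TCF/LEF transcription factors. They were taken by symbol from the 23389 symbols listed for each library, which gave 46 genes. Of these, 19 encode ligands, 10 frizzled receptors, 2 the co-receptors Lrp5 and Lrp6, 8 secreted frizzled-related proteins or Dickkopf proteins, and 4 the factors Lef1, Tcf7, Tcf7l1 and Tcf7l2. The other 3 are Axin1, Axin2 and Ctnnb1.

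Expression was measured by poly-A RNA sequencing in 8 libraries, 2 in each of 4 groups, to set a kind of induced pluripotent stem (iPS) clone beside reference cells. The 3F+IL6 clones came from embryonic fibroblasts reprogrammed with Oct4, Klf4 and Sox2 and were treated with the cytokine IL6 at 10 ng/mL. The references were 4F iPS clones, whose 4 factors the labels do not name, the embryonic stem (ES) cell line D3 carrying GFP, and mouse embryonic fibroblasts (MEF). Every iPS library was a single clone derived separately from the others, and the ES and MEF libraries were biological duplicates. The ES line has the 129S2/SvPas genetic background, whereas MEF and both kinds of clone are BALB/c, so cell type and strain cannot be told apart in any comparison with ES cells. Factor set and IL6 likewise cannot be told apart between the kinds of clone, nor can a difference in non-polyadenylated RNA between their libraries, given below.

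In the canonical Wnt pathway, a secreted ligand binds a frizzled receptor together with Lrp5 or Lrp6. This stops the destruction complex, of which Axin proteins are the scaffold, from degrading β-catenin (Ctnnb1), which then enters the nucleus and acts through TCF/LEF factors. Secreted frizzled-related proteins bind ligands, and some Dickkopf proteins, such as Dkk2, bind the co-receptors. Axin2 is both a negative regulator and a widely used target of the pathway. In mouse ES cells Tcf7l1 is known as a repressor of pluripotency genes, which β-catenin relieves, while Wnt5a and Wnt11 are best known for signalling that does not need β-catenin.

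Values are RPKM, in which reads are divided by gene length and by the size of the library, which allow levels to be compared between genes. Estimated depth ran from 11700000 to 18200000 reads per library, so that 1 RPKM stood for 11.7 to 18.2 reads per kilobase. The labelled cell types matched their markers: all 8 pluripotency markers were at or above 1 RPKM in every ES and iPS library, and all 12 fibroblast markers in both MEF libraries. All 12 fibroblast markers were also at or above 1 RPKM in every iPS clone, where their summed level was 149 to 284 RPKM, against 14.3 and 15.1 in ES and 2757 and 2766 in MEF. The median fibroblast marker stood at 7.66% and 11.6% of its MEF mean in the 3F+IL6 clones, at 8.90% and 7.79% in the 4F clones, and at 0.597% and 0.300% in ES. The single markers ranged widely, from 2.14% to 268% of MEF in the clones: Dcn and Lum stood at 71.7% to 268%, while Twist1, at 3.17 to 4.17 RPKM, was the marker limma called lower in both kinds of clone than in ES, the other 11 being called higher. Of 4 tested neural markers, limma called 3 lower and 0 higher in each kind of clone than in ES. Of all genes, 30.3% and 33.5% were called lower. Pax6 was at 6.25 and 6.13 RPKM in ES and 0.106 to 0.163 in the clones. Sox1 was at 4.07 and 4.61 in ES and 0.495 to 1.01 in the clones. Tubb3 overlapped, at 31.0 and 31.1 and at 21.9 to 34.9. The part of neural RNA in the Wnt gene values of ES was not tested. The 3F+IL6 clones were less alike than other duplicates, with a Pearson correlation across genes of 0.9841 against 0.9935 to 0.9964, and clone 2 also held RNAs of mesendoderm genes, which are given with its values.

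Differences were tested with limma on log2(RPKM + 1) over the 13200 genes that reached 1 RPKM in at least 2 libraries, all 8 libraries sharing 1 model. A gene is called higher or lower where the adjusted p was under 0.05. Of the 46 Wnt genes, 32 entered the test and 14 did not because they stayed under the filter: 11 of the ligands and Dkk1, Dkk4 and Sfrp4. Of the 32, 31 were called in at least 1 of 6 comparisons, and Fzd4, at 0.858 to 1.40 RPKM in all libraries, in none, although quantile normalization called it lower in each comparison of clones with ES or MEF (-0.63 to -0.36). Of the 32, 9 passed the filter only through the group where they are high: Fzd3, Sfrp5 and Wnt6 through ES, and Dkk2, Fzd1, Wnt2, Wnt2b, Wnt4 and Wnt11 through MEF. Their differences from that group follow from the filter and are given below as descriptions with no p; they are part of the counts and medians of called genes, which are descriptions too. With 2 libraries a group, the p-values measure the spread between these cultures and clones.

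Most of the tested Wnt genes differed between ES cells and MEF, as did most genes. limma called 13 of 32 higher in ES and 16 lower, or 90.6%, against 81.7% of all genes tested (49.7% higher and 32.0% lower). Between the 3F+IL6 clones and MEF it called 16 higher and 12 lower, or 87.5%, against 82.1% of all genes (49.4% higher and 32.6% lower). Between the 4F clones and MEF it called 13 higher and 12 lower, or 78.1%, against 83.6% (49.2% higher and 34.4% lower). The shares of called Wnt genes were thus near the background in each comparison with MEF. The median absolute log2 difference of the Wnt genes was 1.68 for ES against MEF, 1.46 for 3F+IL6 against MEF and 1.28 for 4F against MEF, and over all genes it was 0.83, 0.84 and 0.88.

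Against ES cells, 12 Wnt genes were called higher in the 3F+IL6 clones and 9 lower, or 65.6%, where 63.4% of all genes were called (33.1% higher and 30.3% lower). In the 4F clones 11 were called higher and 10 lower, again 65.6%, where 67.2% of all genes were called (33.7% higher and 33.5% lower). Both shares were near the background. The median absolute log2 difference was 0.82 and 0.78 for the Wnt genes and 0.41 and 0.45 for all genes. The signed medians were 0.15 and 0.09 for the Wnt genes against 0.01 and 0.00 for all genes. Both comparisons use the same ES libraries, so their values are given side by side below and are not independent.

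**Figure D1:**
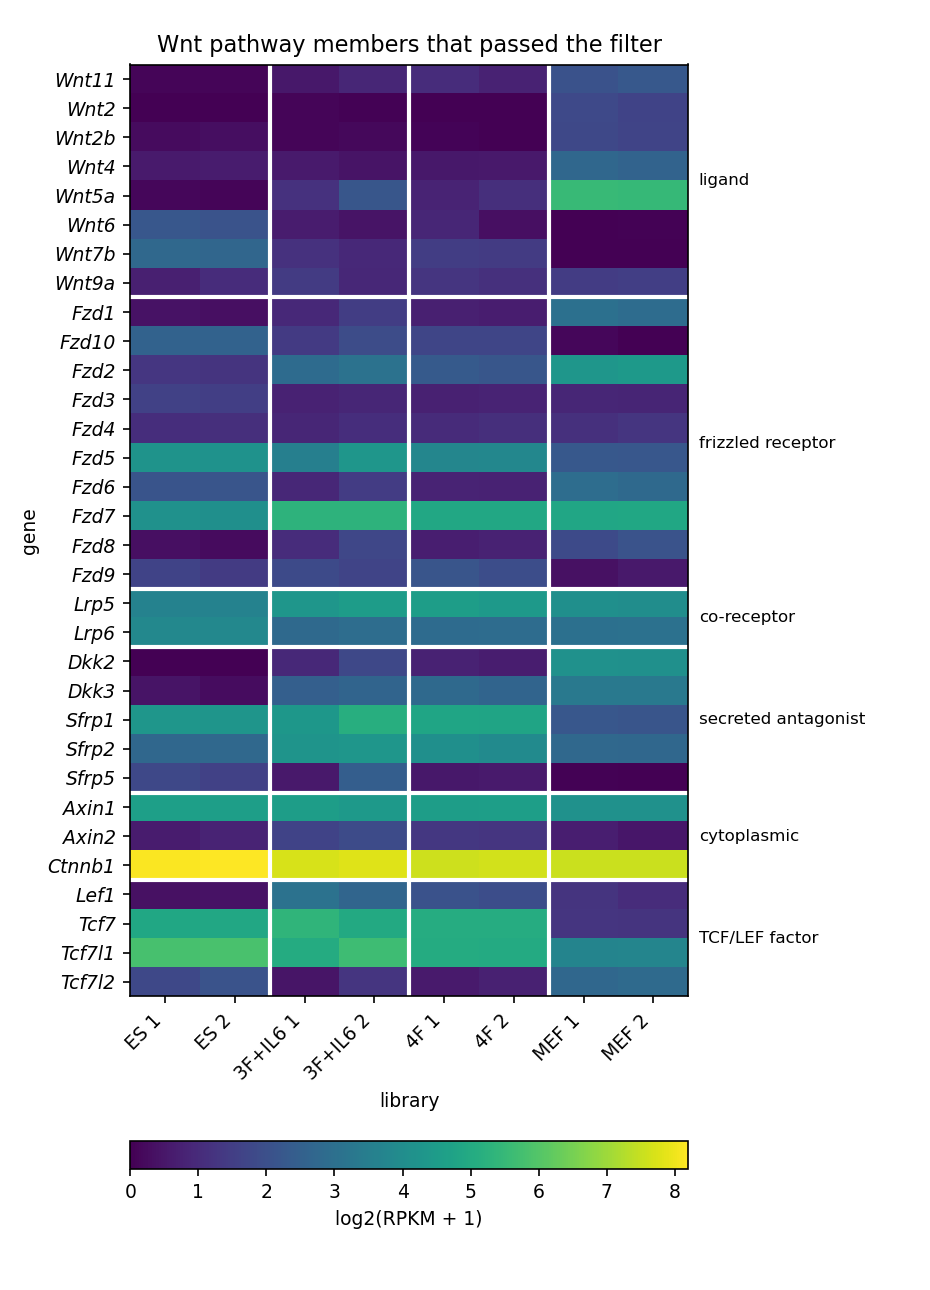
Heat map of log2(RPKM + 1) for the 32 Wnt genes that passed the filter (rows, by role) in the 8 libraries (columns, by group; colour scale from 0). Ctnnb1 is the brightest row in all libraries, and Wnt5a and Dkk2 are bright in the MEF columns alone, at 44.1 and 44.9 and at 16.3 and 16.6 RPKM.

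Wnt5a was the ligand that differed most. This ligand, which acts mainly through receptors of the Ror family and frizzleds without β-catenin, was at 44.9 and 44.1 RPKM in MEF and at 0.115 and 0.0754 in ES. The 3F+IL6 clones had 1.25 and 3.56 RPKM and the 4F clones 0.765 and 1.13. All 4 clones therefore lay above both ES libraries and far below MEF, at 1.72% to 8.01% of the MEF mean. The log2 difference of ES from MEF was -5.38 (SE 0.30; limma adjusted p = 2.3e-06), and the clones stood at -3.83 and -4.55 from MEF for 3F+IL6 and 4F. Against ES, Wnt5a was called higher in 3F+IL6 (1.55; limma adjusted p = 0.0033) and in 4F (0.83; 0.041). The 4F call was lost without either ES library (0.85 and 0.80), without 4F clone 1 or 2 (0.96 and 0.69), without either MEF library (0.83), and with quantile normalization (0.47). Of the 12 fibroblast markers, 11 were also called higher in both kinds of clone than in ES, and their part in the Wnt5a level of the clones was not tested. In bulk RNA, fewer cells of a type and less RNA per cell cannot be told apart.

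The other ligands with a level of at least 1 RPKM in MEF were Wnt4, Wnt11, Wnt2, Wnt2b and Wnt9a. Wnt4, a ligand known from kidney and gonad development, was at 5.64 and 5.13 RPKM in MEF and at 0.346 to 0.558 in all 6 pluripotent libraries, a log2 difference of -2.06 between ES and MEF. Wnt2 was at 2.54 and 2.15 RPKM in MEF, at 0 in the ES and 4F libraries and at 0.0702 and 0.0330 in the 3F+IL6 clones. Wnt2b, its paralogue, was at 2.45 and 2.21 in MEF and at 0 to 0.221 elsewhere. None of these 3 ligands exceeded 0.510 RPKM in a clone. limma did not call Wnt4 between 3F+IL6 or 4F and ES (-0.10 and -0.07), but did with quantile normalization (-0.45 and -0.39). Wnt2b was called lower in 4F than in ES by -0.23 at levels of 0 to 0.221 RPKM, a call lost without any single ES or 4F library (-0.26 to -0.19), with median centring (-0.22) and with the replicate block (-0.23).

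Wnt11 was intermediate in the clones. It was at 3.19 and 3.76 RPKM in MEF, 0.0902 and 0.0711 in ES, 0.450 and 0.847 in 3F+IL6 and 1.05 and 0.734 in 4F. No clone overlapped ES or MEF. limma called it higher than in ES in 3F+IL6 (0.60; adjusted p = 0.0099) and in 4F (0.80; 0.0024), and its differences from MEF were -1.45 and -1.24. The 3F+IL6 call against ES was lost without ES replicate 2 (0.59) and with quantile normalization (0.19). The part of fibroblast RNA in the Wnt11 levels of the clones was not tested. Wnt9a was at 0.661 and 1.07 RPKM in ES, 1.66 and 0.876 in 3F+IL6, 1.38 and 1.21 in 4F and 1.74 and 1.89 in MEF. Of the comparisons, limma called that of ES with MEF (-0.60; adjusted p = 0.018), and that call was lost without ES replicate 1 (-0.44) or either MEF library (-0.64 and -0.56) and with quantile normalization (-0.60). Other settings called it higher in 3F+IL6 than in ES (0.52, without clone 2), lower in 3F+IL6 than in MEF (-0.59 without clone 1 and -0.69 with quantile normalization), and lower in 4F than in MEF (-0.29, in the fit of only these 4 libraries).

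The ligands of the ES cells were others, and the clones held less of them. Wnt7b was at 5.77 and 5.56 RPKM in ES, 1.24 and 0.911 in 3F+IL6, 1.79 and 1.66 in 4F and 0.0158 and 0 in MEF. It was called lower than in ES in 3F+IL6 (-1.69, SE 0.10; limma adjusted p = 2.3e-05) and in 4F (-1.29; 6.6e-05), and higher than in MEF in both (1.04 and 1.44). Wnt6 showed the same order of levels, with 3.70 and 3.31 RPKM in ES, 0.539 and 0.338 in 3F+IL6, 0.856 and 0.268 in 4F and 0 and 0.0265 in MEF. Its log2 differences from ES were -1.65 in 3F+IL6 and -1.55 in 4F. Its calls against MEF depended on single libraries. The 3F+IL6 value of 0.50 was lost without clone 1 (0.40) or either MEF library (0.48 and 0.52), and the 4F value of 0.60 without clone 1 (0.32) or either MEF library (0.58 and 0.62). Quantile normalization also ended both calls, at 0.13 and 0.26, and median centring that of 3F+IL6 (0.39).

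**Figure D2:**
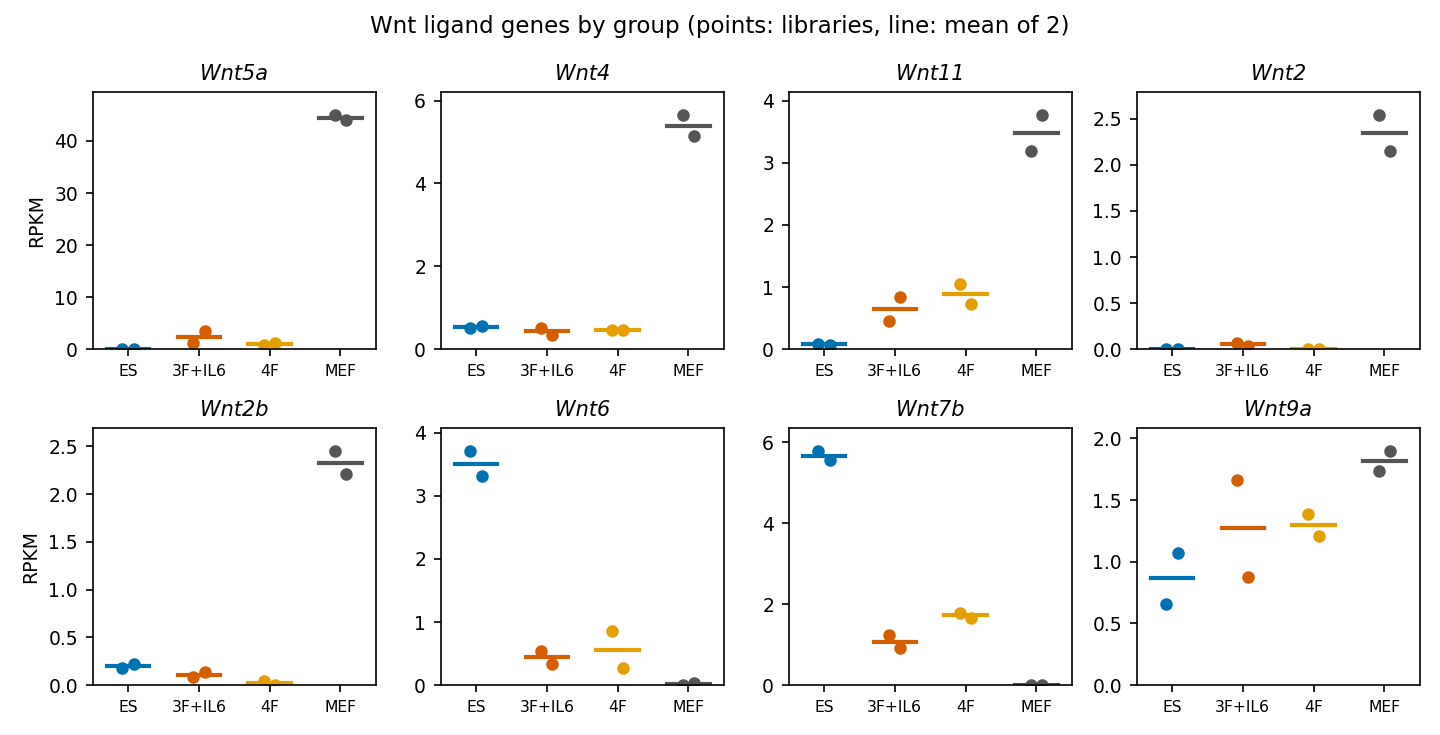
RPKM of the 8 tested Wnt ligands by group; each point is a library and each line the mean of 2 libraries, with axes from 0. Wnt5a, Wnt4, Wnt2 and Wnt2b are high in MEF alone, whereas Wnt6 and Wnt7b are highest in ES, with the clones between ES and MEF.

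The mix of ligand RNAs therefore differed between groups. Summed over the 19 ligands, MEF had 62.5 and 61.4 RPKM, ES 12.7 and 12.0, 3F+IL6 7.86 and 9.98, and 4F 8.09 and 7.82. Wnt5a made up 71.9% and 71.8% of the ligand sum in MEF and 0.904% and 0.627% in ES. In the clones its share was 15.9% and 35.7% for 3F+IL6 and 9.45% and 14.5% for 4F. Wnt7b made up 45.5% and 46.2% of the sum in ES, 15.8% and 9.12% in 3F+IL6 and 22.1% and 21.3% in 4F. The ligand sum of every clone was thus below that of both ES libraries, and Wnt7b made up a smaller share of it.

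The 11 ligands under the filter were low everywhere. Wnt9b was at 0 in all 8 libraries, and Wnt1 and Wnt8b were above 0 in 1 library each, at 0.0235 in MEF replicate 1 and 0.0233 in 4F clone 2. Wnt8a, a ligand of the early embryo, was at 0.741 and 1.21 RPKM in 3F+IL6 and 0.336 and 0.842 in 4F, above 0.252 and 0.221 in ES and 0.0371 and 0 in MEF. Wnt3, which is needed to form the primitive streak, was at 0.166 and 0.400 in 3F+IL6 and 0.107 and 0.151 in 4F, again above all ES and MEF libraries, which ran from 0 to 0.0403. Wnt3a was at 0.161 to 0.573 in the pluripotent libraries and at 0 in both MEF libraries. Wnt10a ran the other way, at 0 to 0.178 in the clones and 0.374 to 0.543 in ES and MEF. Wnt5b, Wnt7a, Wnt10b and Wnt16 did not exceed 0.529 RPKM in any library. At the depths given above, values this low rest on few reads, and they were not tested.

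Among the frizzled receptors, Fzd7 and Fzd2 were called higher in both kinds of clone than in ES. Fzd7, the most abundant frizzled RNA in every clone and in MEF, was at 16.9 and 15.8 RPKM in ES, 37.9 and 38.6 in 3F+IL6, 29.0 and 29.0 in 4F and 27.8 and 28.4 in MEF. Group means were 16.3 ± 0.751, 38.3 ± 0.496, 29.0 ± 0.00247 and 28.1 ± 0.399 (SD, n = 2 each). Both 3F+IL6 clones lay above every other library, and the 4F clones just above MEF. The log2 difference from ES was 1.18 (SE 0.06; limma adjusted p = 9.6e-06) in 3F+IL6 and 0.79 (4.3e-05) in 4F. Against MEF, it was called in 3F+IL6 (0.43; limma adjusted p = 0.00025; 0.29 with quantile normalization) and not in 4F (0.05; 0.47). Fzd2 was at 1.47 and 1.34 RPKM in ES, 6.32 and 7.49 in 3F+IL6, 3.98 and 3.59 in 4F and 18.7 and 20.5 in MEF. Every clone lay between the ES and MEF libraries. The differences from ES were 1.71 and 0.99 for 3F+IL6 and 4F, and from MEF -1.39 and -2.11, all called by limma.

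Fzd1 and Fzd8 had the same order of levels as Fzd2 but with a larger gap between the 3F+IL6 clones. The part of fibroblast RNA in the levels of Fzd1, Fzd2 and Fzd8 in the clones was not tested. Fzd1 was at 0.314 and 0.270 RPKM in ES, 0.922 and 1.78 in 3F+IL6, 0.665 and 0.572 in 4F and 7.09 and 6.49 in MEF. Its difference from ES was called in 3F+IL6 (0.84; limma adjusted p = 0.0041; 0.46 with quantile normalization) and not in 4F (0.32; 0.13). The 4F difference was called with a pseudocount of 0.1 (0.87), with array weights (0.32) and without either 3F+IL6 clone (0.32). Fzd8 was at 0.262 and 0.177 in ES, 1.06 and 2.38 in 3F+IL6, 0.624 and 0.704 in 4F and 2.62 and 3.27 in MEF. limma called it higher in 3F+IL6 than in ES (1.11; adjusted p = 0.0038) and lower in both kinds of clone than in MEF (-0.58 and -1.24). Its 4F difference from ES (0.45; limma adjusted p = 0.11) was called with a pseudocount of 0.1 (1.27), with array weights and without either 3F+IL6 clone (0.45). The 3F+IL6 call against MEF was lost without 3F+IL6 clone 1 (-0.22), without any one library of the ES, 4F or MEF groups (-0.70 to -0.46), and in the fit of only the 4 libraries compared; without clone 2 it was -0.93.

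Fzd5, Fzd9 and Fzd10 were low in MEF. Fzd5, the most abundant frizzled RNA in ES, was at 17.7 and 17.2 RPKM in ES, 10.6 and 18.9 in 3F+IL6, 12.6 and 12.8 in 4F and 3.73 and 3.66 in MEF. limma did not call it between either kind of clone and ES (-0.28 and -0.43; adjusted p = 0.29 and 0.12), although the 4F difference was called in the fit of only the ES and 4F libraries (limma adjusted p = 0.00098) and the 3F+IL6 difference without clone 2 (-0.66). It called all pluripotent groups higher than MEF (1.55 to 1.97). Fzd10 was at 4.96 and 4.93 in ES, 1.60 and 2.76 in 3F+IL6, 2.27 and 2.26 in 4F and 0.0929 and 0.0182 in MEF, lower than in ES in both kinds of clone (-0.92 and -0.86; limma adjusted p = 0.0024 and 0.003). Fzd9 was at 2.16 and 1.67 in ES, 2.61 and 2.18 in 3F+IL6, 3.51 and 2.85 in 4F and 0.291 and 0.466 in MEF. Its difference from ES was called in 4F (0.52; limma adjusted p = 0.013) but lost without ES replicate 2 (0.40), without 4F clone 1 (0.41) and with quantile normalization (0.36).

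Fzd3 and Fzd6, which are known for planar cell polarity, had lower levels in both kinds of clone than in ES. Fzd6 was at 3.35 and 3.47 RPKM in ES, 0.881 and 1.72 in 3F+IL6, 0.754 and 0.709 in 4F and 6.57 and 6.03 in MEF. All 4 clones were below all ES and MEF libraries, by -0.96 and -1.35 from ES and by -1.69 and -2.08 from MEF, and limma called all 4 differences. Fzd3 was at 1.97 and 1.88 in ES and 0.688 to 0.861 in the other 6 libraries. Its log2 differences from ES were -0.71 and -0.76, and -1.11 with quantile normalization in 3F+IL6. Over all 10 frizzleds, the sum was 50.1 and 47.9 RPKM in ES, 63.5 and 77.8 in 3F+IL6, 55.1 and 54.4 in 4F and 68.9 and 71.0 in MEF. Fzd7 made up 33.7% and 33.0% of it in ES, 59.7% and 49.6% in 3F+IL6, 52.7% and 53.3% in 4F and 40.3% and 39.9% in MEF.

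The co-receptors Lrp5 and Lrp6 went in opposite directions. Lrp5 was at 11.4 and 11.3 RPKM in ES, 18.9 and 22.2 in 3F+IL6, 22.7 and 20.8 in 4F and 15.9 and 15.2 in MEF. All 4 clones lay above all ES and MEF libraries, by 0.80 (SE 0.09; limma adjusted p = 3e-04) and 0.88 (0.00018) from ES and by 0.37 and 0.46 from MEF. Lrp6 was at 13.3 and 13.1 in ES, 6.00 and 6.55 in 3F+IL6, 6.32 and 6.46 in 4F and 7.06 and 7.28 in MEF. It was lower than in ES in both kinds of clone (-0.97 and -0.94; limma adjusted p = 6.1e-05 and 6.7e-05) and was not called against MEF (-0.17 and -0.14) except with median centring (-0.28 and -0.22) and quantile normalization (-0.31 and -0.22), without 3F+IL6 clone 2 (-0.22 in 3F+IL6), and for 4F without either 3F+IL6 clone (-0.14). Their sum stayed between 22.4 and 29.0 RPKM in every library, while the more abundant of the pair was Lrp6 in ES and Lrp5 in the clones and MEF.

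Among the secreted antagonists, Sfrp2 was higher in the clones than in either reference. Sfrp2 was at 5.67 and 5.89 RPKM in ES, 17.8 and 18.6 in 3F+IL6, 15.9 and 14.2 in 4F and 5.82 and 5.61 in MEF. Means were 5.78 ± 0.157, 18.2 ± 0.583, 15.0 ± 1.18 and 5.71 ± 0.147 (SD, n = 2 each), so that ES and MEF overlapped (0.01; limma adjusted p = 0.88) and every clone was above both. The differences from ES were 1.50 (SE 0.08; limma adjusted p = 1.4e-05) and 1.24 (2.9e-05), and from MEF 1.52 and 1.25. Sfrp1 was at 18.6 and 18.4 in ES, 19.2 and 34.0 in 3F+IL6, 27.4 and 26.4 in 4F and 3.69 and 3.43 in MEF. It was called between each pluripotent group and MEF (2.10 to 2.61) and not between either kind of clone and ES (0.45 and 0.52; limma adjusted p = 0.12 and 0.076), although the 4F difference was called in the fit of only the ES and 4F libraries (limma adjusted p = 0.00034) and the 3F+IL6 difference without clone 1 (0.84). Sfrp5 was at 2.44 and 2.00 in ES, 0.470 and 4.42 in 3F+IL6, 0.445 and 0.502 in 4F and 0.0295 and 0 in MEF. Its 3F+IL6 call against MEF (1.48; limma adjusted p = 0.03) was 0.54 without clone 2 and 2.42 without clone 1, and was lost without either MEF library (1.50 and 1.46) or either 4F clone (1.48) and with quantile normalization (1.16). The Sfrp5 difference of 3F+IL6 from ES had opposite signs without clone 1 (0.76) and without clone 2 (-1.13), and that of 4F from ES was -1.12, with no overlap of the libraries.

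Of the Dickkopf genes, Dkk3 and Dkk2 were highest in MEF and were also present in the clones. The part of fibroblast RNA in their levels in the clones was not tested. Dkk3, the most distant member of the family, was at 0.355 and 0.216 RPKM in ES, 4.56 and 5.24 in 3F+IL6, 5.92 and 5.19 in 4F and 8.93 and 8.86 in MEF. The clones stood at 51.3% to 66.6% of the MEF mean. Of the fibroblast markers, Dcn and Lum stood higher in each clone and the others lower, with Pdgfra next at 23.4% to 48.2%. The difference from ES was 2.20 and 2.35 (limma adjusted p = 1e-05 and 8.1e-06), and from MEF -0.75 and -0.60. Dkk2, which binds Lrp6, was at 0 and 0.0179 in ES, 0.909 and 2.44 in 3F+IL6, 0.722 and 0.592 in 4F and 16.6 and 16.3 in MEF. The clones were at 3.60% to 14.9% of the MEF mean. Against ES it was called higher in 3F+IL6 (1.35; limma adjusted p = 0.0026) and in 4F (0.71; 0.035). The 4F call was lost without any one library of the ES, 4F or MEF groups (0.66 to 0.77) and with quantile normalization (0.44). Under the filter, Sfrp4 was at 0.831 and 1.03 in ES and 0.0958 to 0.297 elsewhere, and Dkk4 was at 0 in every library but 4F clone 2 (0.0612).

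Ctnnb1, which encodes β-catenin, was the most abundant of the 46 RNAs in every library. It was at 283 and 292 RPKM in ES, 208 and 222 in 3F+IL6, 191 and 197 in 4F and 186 and 186 in MEF. Both kinds of clone were below ES, by -0.42 (SE 0.05; limma adjusted p = 0.00032) and -0.57 (8.2e-05). The 3F+IL6 clones were called above MEF (0.21; limma adjusted p = 0.0044), which was lost with median centring (0.10) and quantile normalization (0.09). Axin1, the constitutive scaffold, was at 20.8 to 23.8 in all pluripotent libraries and 16.8 and 16.7 in MEF, a difference called by limma for each pluripotent group (0.35 to 0.46).

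The feedback genes Axin2 and Lef1, both textbook targets of β-catenin, were above all ES and MEF libraries in all 4 clones. Axin2 (mm10 chr11:108920349-108950783) was at 0.543 and 0.756 RPKM in ES, 2.12 and 2.64 in 3F+IL6, 1.53 and 1.38 in 4F and 0.609 and 0.406 in MEF. Its means were 0.649 ± 0.150, 2.38 ± 0.369, 1.45 ± 0.104 and 0.508 ± 0.144 RPKM in the same order (SD, n = 2 each). The lowest clone was thus above the highest reference library. The differences from ES were 1.03 (SE 0.12; limma adjusted p = 0.00041) in 3F+IL6 and 0.57 (0.0053) in 4F, and from MEF 1.16 and 0.70; quantile normalization lowered the 4F values to 0.32 and 0.26 and that of 3F+IL6 against MEF to 0.70, all still called. ES and MEF overlapped and were not called apart (0.13; limma adjusted p = 0.36). Lef1 (mm10 chr3:131110471-131224356) was at 0.282 and 0.324 in ES, 7.53 and 5.34 in 3F+IL6, 3.21 and 2.80 in 4F and 1.34 and 1.04 in MEF. Its means were 0.303 ± 0.0293, 6.44 ± 1.55, 3.01 ± 0.294 and 1.19 ± 0.208 RPKM, with no overlap between any of the groups. The differences from ES were 2.50 (SE 0.15; limma adjusted p = 2.4e-05) and 1.62 (0.00013), and from MEF 1.75 and 0.87. Exons of Axin2, Lef1, Ctnnb1, Fzd5, Fzd6, Sfrp2, Tcf7l1, Wnt5a, Wnt7b and Wnt11 overlap annotated genes of the opposite strand, and because the library kit does not mark strand, reads of such pairs cannot be told apart.

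The promoters of Axin2 and Lef1 are shown because these genes stood above both references, and that of Wnt11 because it holds the full TCF motif searched. Each run is the 250 bases before the annotated RefSeq start on build GRCm38.p6, plus strand, at chr11:108920099-108920348 for Axin2, chr3:131110073-131110322 for one of the Lef1 starts and chr7:98834862-98835111 for Wnt11. Capitals mark CTTTG on either strand, and ATCAAAG where the longer motif was found.
Axin2: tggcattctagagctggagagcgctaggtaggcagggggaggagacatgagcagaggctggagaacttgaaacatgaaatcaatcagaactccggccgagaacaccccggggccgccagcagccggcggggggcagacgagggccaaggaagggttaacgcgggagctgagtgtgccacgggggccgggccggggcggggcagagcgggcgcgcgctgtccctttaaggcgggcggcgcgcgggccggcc
Lef1: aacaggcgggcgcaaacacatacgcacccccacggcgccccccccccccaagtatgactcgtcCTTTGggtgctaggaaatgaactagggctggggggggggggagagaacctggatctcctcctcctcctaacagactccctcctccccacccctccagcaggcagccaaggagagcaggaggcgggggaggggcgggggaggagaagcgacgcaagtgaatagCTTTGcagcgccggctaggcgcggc
Wnt11: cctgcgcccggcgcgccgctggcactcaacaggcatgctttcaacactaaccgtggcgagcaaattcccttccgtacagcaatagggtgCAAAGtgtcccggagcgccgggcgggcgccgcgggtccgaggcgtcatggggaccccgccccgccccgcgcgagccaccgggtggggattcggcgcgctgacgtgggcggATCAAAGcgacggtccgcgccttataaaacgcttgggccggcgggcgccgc
The motifs searched on both strands were CTTTGAT or CTTTGAA, which are some of the forms of the TCF/LEF consensus. Their shared core CTTTG, which lies inside the longer motif, was searched too. RefSeq promoters of 250 bases before to 50 after the start were at hand for 31 of the 46 genes, with 40 starts. The longer motif lay in 3 of these 40 windows, or 7.5%, those of Wnt5b, Wnt11 and Dkk1, against 8.65% of 32851 promoters. The core lay in 20 of 40, or 50%, against 53.9% of all. The Axin2 window held neither, and the Lef1 window shown held the core alone.

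The TCF/LEF factors changed in mix. Tcf7l1, the most abundant of them in ES, was at 54.7 and 56.3 RPKM in ES, 32.3 and 49.2 in 3F+IL6, 31.7 and 31.3 in 4F and 12.1 and 12.3 in MEF. It was called lower than in ES in 4F (-0.80; limma adjusted p = 0.0046) and in 3F+IL6 (-0.47; 0.044). The 3F+IL6 value was -0.17 without clone 1 and -0.76 without clone 2, and its call was lost without any one library of the ES, 4F or MEF groups (-0.49 to -0.45) and with quantile normalization (-0.39). Tcf7 was at 28.6 and 28.9 in ES, 40.3 and 30.8 in 3F+IL6, 32.4 and 32.7 in 4F and 1.42 and 1.37 in MEF. It separated the pluripotent libraries from MEF (3.64 to 3.92, all called by limma) and was not called between clones and ES (0.29 and 0.17), although it was in 4F in the fit of only the ES and 4F libraries (limma adjusted p = 0.017) and in 3F+IL6 without clone 2 (0.47). Tcf7l2 was at 2.39 and 3.26 in ES, 0.389 and 1.41 in 3F+IL6, 0.522 and 0.679 in 4F and 5.72 and 6.17 in MEF, so that every clone was below every reference library. It was lower than in ES by -1.05 and -1.25 (limma adjusted p = 0.0084 and 0.0036). The 3F+IL6 value was -0.66 without clone 1, and its call was lost without ES replicate 2 (-0.89). The call of ES against MEF (-0.87) was lost without ES replicate 1 (-0.70) or MEF replicate 2 (-0.82). Lef1 made up 0.328% and 0.365% of the summed RPKM of the 4 factors in ES, 9.36% and 6.16% in 3F+IL6, 4.74% and 4.14% in 4F and 6.50% and 4.98% in MEF.

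**Figure D3:**
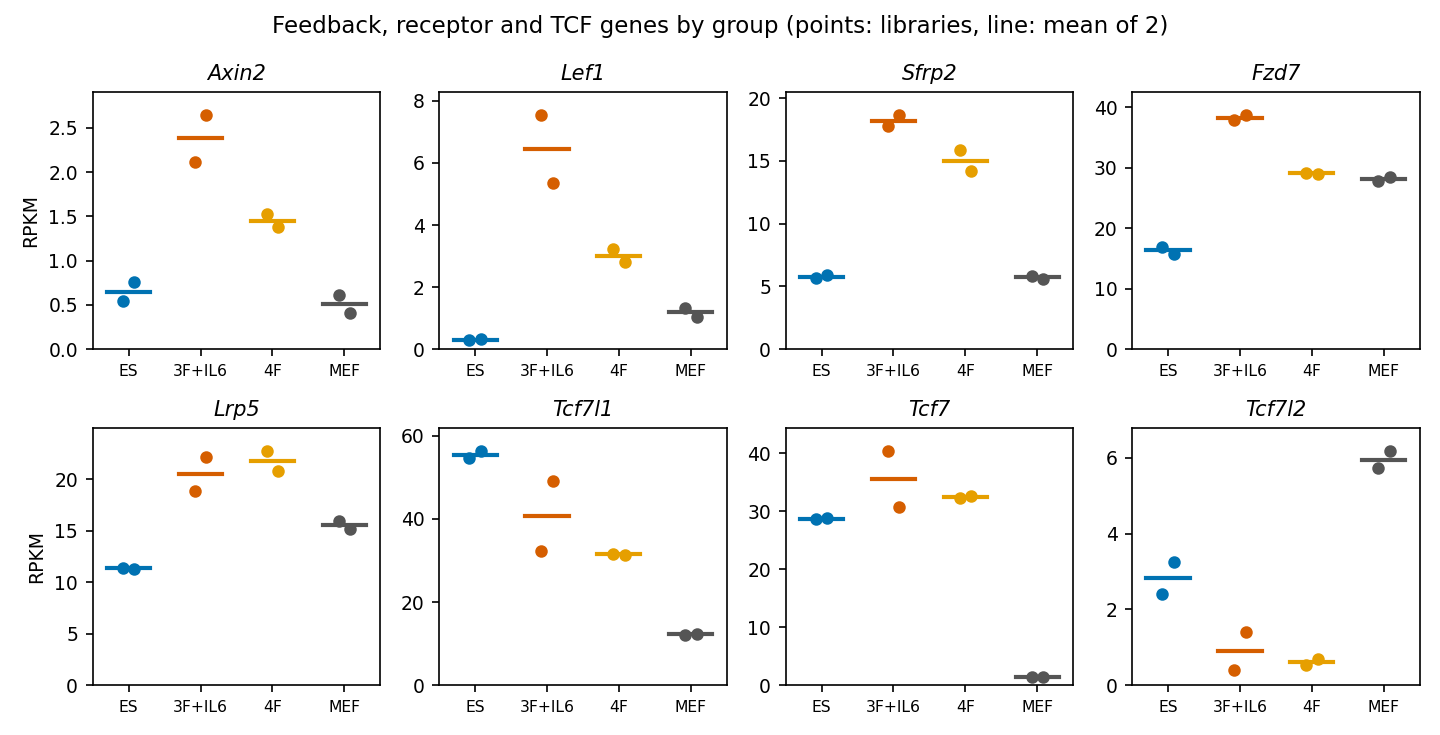
RPKM of Axin2, Lef1, Sfrp2, Fzd7, Lrp5, Tcf7l1, Tcf7 and Tcf7l2 by group; points are libraries, lines the mean of 2, with axes from 0. Axin2, Lef1, Sfrp2, Fzd7, Lrp5 and Tcf7 lie above ES and MEF in every clone, and Tcf7l2 below them, at 0.389 to 1.41 RPKM.

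Seen by level alone, 8 of the 32 tested Wnt genes lay above all 4 ES and MEF libraries in all 4 clones, or 25.0%, where 23.5% of all genes did. These were Axin2, Fzd7, Fzd9, Lef1, Lrp5, Sfrp1, Sfrp2 and Tcf7. Another 4 lay below, or 12.5%, where 14.9% of all genes did: Fzd6, Lrp6, Tcf7l2 and Wnt2b. Both shares were near the background, so levels outside the range of the references were about as common among the Wnt genes as among all genes.

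**Figure D4:**
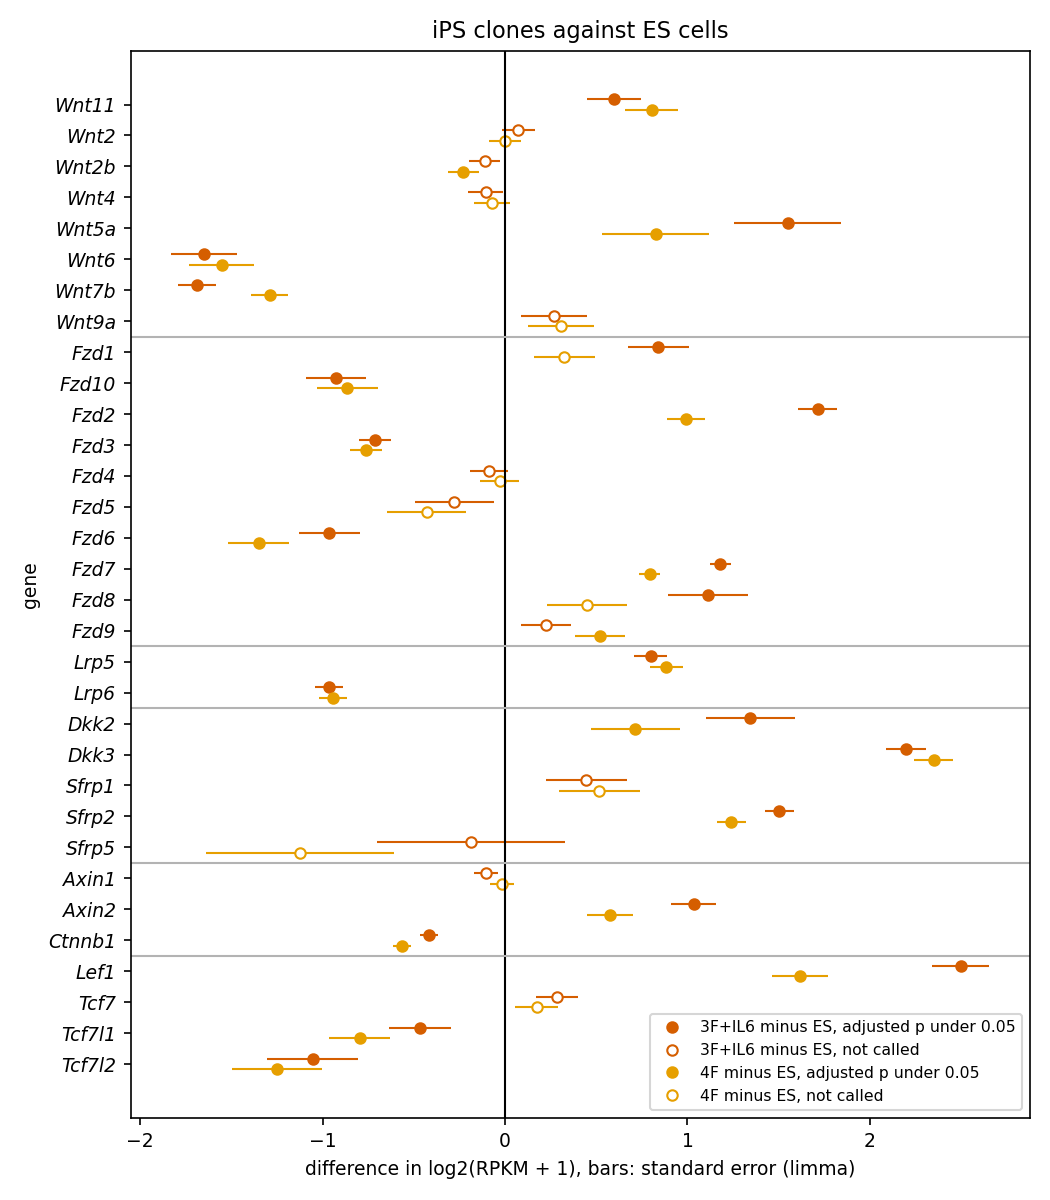
Differences in log2(RPKM + 1) of the 3F+IL6 and 4F clones from ES for the 32 tested Wnt genes, by role, with bars of 1 limma standard error; filled points are called. Lef1, Dkk3 and Fzd2 lie far to the right in both kinds of clone and Wnt7b and Wnt6 far to the left, at -1.69 to -1.29.

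Between the kinds of clone, limma called 2 of 32 Wnt genes higher in 3F+IL6 and 0 lower, or 6.25%, where 1.34% of all genes were called (0.773% higher and 0.568% lower). The 2 were Fzd2 (0.72, SE 0.11; adjusted p = 0.04) and Fzd7 (0.39, SE 0.06; adjusted p = 0.04), whose levels did not overlap between the kinds. Both calls were lost in the fit of only these 4 libraries, with the replicate block, with array weights, with the library class as a term, with a pseudocount of 0.1, and without any one library of the ES, 4F or MEF groups; without 3F+IL6 clone 1 the count was 16 higher and 1 lower, and without clone 2 it was 4 and 1. At an unadjusted p under 0.05, 10 were higher and 1 lower in 3F+IL6, or 34.4%, where 24.2% of all genes reached it. Lef1 was next (0.88, SE 0.15; limma adjusted p = 0.051), with 7.53 and 5.34 RPKM in 3F+IL6 above 3.21 and 2.80 in 4F. The Lef1 difference was 0.67 without clone 1 and 1.09 without clone 2. In such fits the lone 3F+IL6 clone is assumed to vary as much as the libraries of the other groups do. Axin2 (0.46; limma adjusted p = 0.1), Sfrp2 (0.26; 0.12) and Wnt7b (-0.40; 0.097) also did not overlap between the kinds and were not called.

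Clone 2 of 3F+IL6 differed from clone 1 at several Wnt genes. It had the highest value of the 8 libraries for 6 of the 32 tested genes, or 18.8%, where it did so for 10.8% of all genes: Axin2, Fzd5, Fzd7, Sfrp1, Sfrp2 and Sfrp5. Sfrp5 was at 4.42 RPKM in clone 2 and 0.470 in clone 1. Dkk1, an antagonist that the anterior mesendoderm and visceral endoderm of the embryo express, was at 1.33 in clone 2, at 0.0332 in clone 1 and at 0.0625 to 0.349 in the other 6 libraries. Wnt5a (3.56 against 1.25), Dkk2 (2.44 against 0.909) and Fzd8 (2.38 against 1.06) were also higher in clone 2. Lef1 (5.34 against 7.53), Tcf7 (30.8 against 40.3), Wnt7b (0.911 against 1.24) and Wnt9a (0.876 against 1.66) were lower in it. In all, 23 of the 32 were above clone 1 and 9 below, or 71.9% and 28.1%, where 60.5% and 39.1% of all genes were. With a single clone, these differences have no replicate check.

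Most of the mesendoderm markers stood apart in the same library. Their summed level, over 5 genes, was 7.57 RPKM in clone 2, 2.56 in clone 1, 2.23 and 2.14 in 4F, 3.62 and 4.76 in ES and 0.694 and 0.525 in MEF. In clone 2, 4 of the 5 were at or above 1 RPKM, and in each other pluripotent library 1. Cer1, a secreted antagonist of Wnt, Nodal and BMP ligands, was at 14.4 RPKM in clone 2 and at 0 to 0.129 in the other 7 libraries. The primitive streak gene T was at 1.13 in clone 2 and at 0 to 0.260 elsewhere, Foxa2 at 1.61 and at 0 to 0.297, Gsc at 2.18 and at 0.0475 to 0.619, and Mixl1 at 0.731 and at 0.0244 to 0.348. Eomes, the fifth marker, did not follow: it was at 1.92 in clone 2 and 1.66 in clone 1, below 2.70 and 3.51 in ES, and was called lower in 3F+IL6 than in ES (-0.55; limma adjusted p = 0.0067). Fibroblast markers were also highest in clone 2 among the clones, at 284 RPKM in sum. The part of either in the Wnt gene values of clone 2 was not tested.

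**Figure D5:**
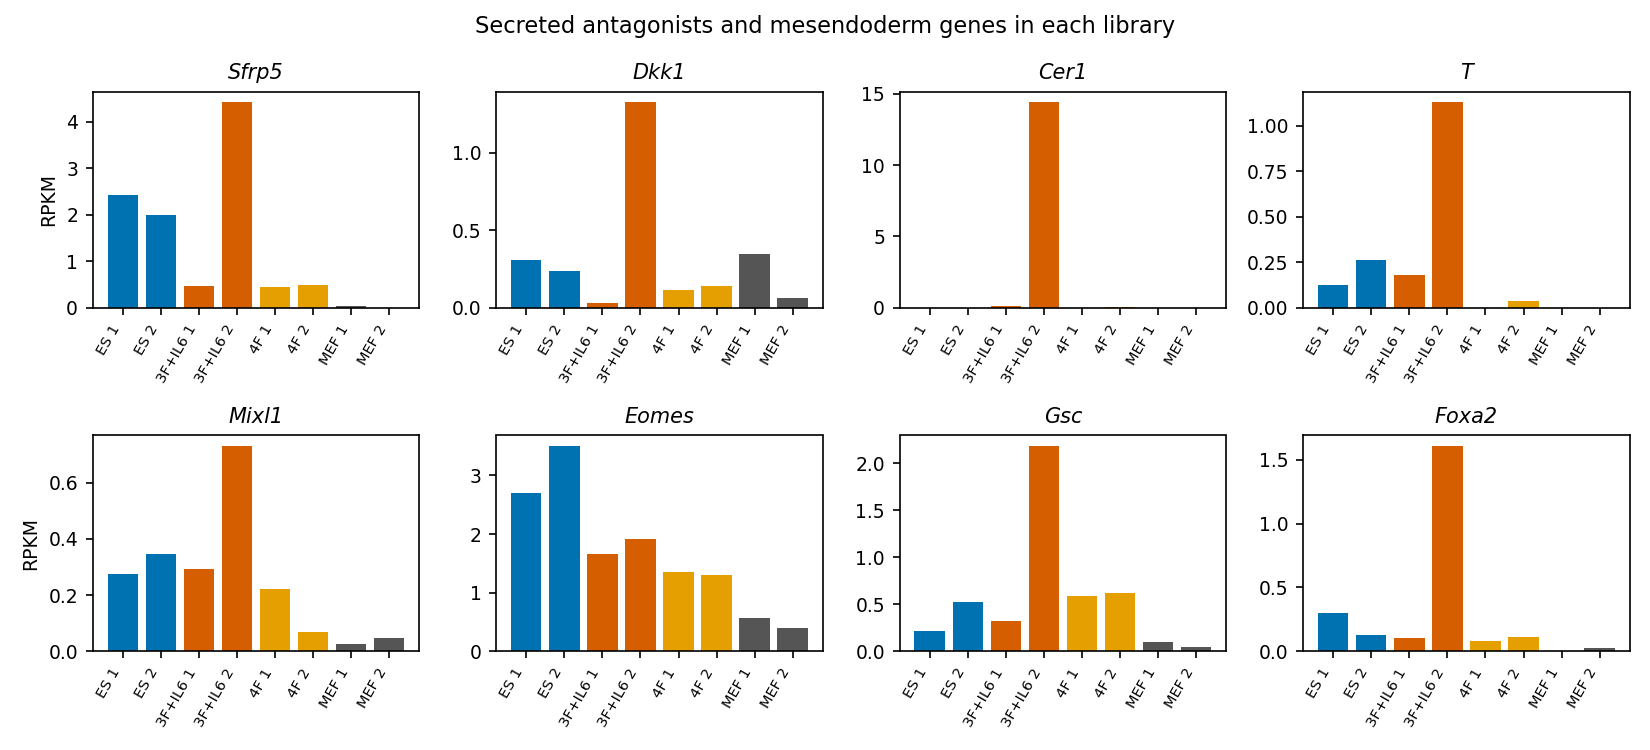
RPKM of the antagonist genes Sfrp5 and Dkk1, of Cer1, chosen after its value was seen, and of all 5 mesendoderm markers in each library (bars from 0, coloured by group, 1 library each). The bar of 3F+IL6 clone 2 is the tallest for every gene shown except Eomes, which is highest in ES at 2.70 and 3.51 RPKM. Of the Sfrp and Dkk genes not shown, Sfrp1 and Sfrp2 were also highest in clone 2, and Dkk2, Dkk3, Dkk4 and Sfrp4 were not.

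Genes that act beside the 46 were followed as lists. Of 16 tested genes for ligand release and surface partners, limma called 10 higher and 5 lower in 3F+IL6 than in ES (3 lower without ES replicate 2), and 9 higher and 5 lower in 4F. That is 62.5% higher and 31.2% lower in 3F+IL6 and 56.2% and 31.2% in 4F, where all genes had 33.1% and 30.3%, and 33.7% and 33.5%. The median log2 difference of the list was 0.54 and 0.51, where that of all genes was 0.01 and 0.00. Wls, the carrier that brings Wnt ligands to the cell surface, was at 0.568 and 1.12 RPKM in ES, 6.51 and 9.15 in 3F+IL6, 5.02 and 4.89 in 4F and 93.7 and 92.3 in MEF. The clones were at 5.26% to 9.84% of the MEF mean, below the median fibroblast marker in each clone. The part of fibroblast RNA in these values was not tested. Lgr4, a receptor of the R-spondins that strengthen Wnt signals, was at 12.3 and 12.8 in ES, 25.5 and 26.1 in 3F+IL6, 21.1 and 22.5 in 4F and 5.76 and 5.57 in MEF. All 4 clones were above all ES and MEF libraries (0.98 and 0.75 from ES; limma adjusted p = 3.3e-05 and 1e-04). The R-spondin gene Rspo4 was at 1.81 and 3.58 in 3F+IL6, 1.42 and 0.766 in 4F, 0.0798 and 0.0559 in ES and 0 in MEF. Porcn, the enzyme that adds the lipid ligands need, was at 14.5 and 6.43 in the 3F+IL6 clones and 11.2 to 14.8 in the other pluripotent libraries.

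Of 5 tested secreted or membrane antagonists outside the 46, 2 were called higher and 2 lower in 3F+IL6 than in ES, and 1 each in 4F; single libraries moved the higher count of 2 to between 1 and 3 and that of 1 to as many as 2. The list was called at 80.0% in 3F+IL6 and 40.0% in 4F, where all genes were at 63.4% and 67.2%. Igfbp4, an IGF-binding protein that also binds Wnt receptors, was at 2.54 and 2.32 RPKM in ES, 65.1 and 50.3 in 3F+IL6, 49.5 and 42.0 in 4F and 34.1 and 36.5 in MEF (4.09 and 3.77 from ES, both called by limma). Notum, the enzyme that removes the lipid from Wnt ligands and is itself a Wnt target, went the other way from Axin2. It was at 11.7 and 10.2 in ES, 2.84 and 3.64 in 3F+IL6, 1.84 and 1.57 in 4F and 0.305 and 0.380 in MEF (-1.50 and -2.14 from ES; limma adjusted p = 8.4e-05 and 2.1e-05).

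Of 10 tested genes of a list of general Wnt targets, 5 were called higher and 2 lower in 3F+IL6 than in ES, and 6 and 2 in 4F, with medians of 0.90 and 0.79. Of all genes, 33.1% and 33.7% were called higher and 30.3% and 33.5% lower. Of the genes called higher in both kinds of clone, Ccnd1, Cd44, Ccnd2 and Jun were highest in MEF and Tnfrsf19 lowest there. Cd44, at 0.242 and 0.324 RPKM in ES and 291 and 296 in MEF, was at 2.58 to 6.43 in the clones. The clones also held fibroblast markers, as given above, and the part of fibroblast RNA in their values was not tested. Without ES replicate 2 the lower count was 1 in each, and in 4F also without ES replicate 1, either MEF library or 4F clone 1. The same list had 3 called higher and 6 lower in 3F+IL6 than in MEF, and 4 and 5 in 4F. Of all genes, 49.4% and 49.2% were called higher than in MEF and 32.6% and 34.4% lower. Against ES and against MEF, the list thus held calls in both directions, as did all genes. Ccnd1 was at 17.3 and 16.6 RPKM in ES, 39.5 and 57.1 in 3F+IL6, 27.9 and 30.6 in 4F and 114 and 112 in MEF. Tnfrsf19 was at 1.98 and 1.78 in ES, 3.26 and 3.46 in 3F+IL6, 2.89 and 2.60 in 4F and 0.143 and 0.105 in MEF. Myc was at 20.9 and 20.4 in ES, 5.09 and 16.8 in 3F+IL6, 53.0 and 54.6 in 4F and 62.4 in both MEF libraries. Both 4F clones thus lay above ES and both 3F+IL6 clones below it, clone 2 much nearer to ES than clone 1. The 3F+IL6 difference of Myc from ES was not called by limma. Myc is not among the factors named for the 3F+IL6 clones, and the labels do not name those of 4F. The part of the factor set in its level was not tested. The feedback ligase gene Znrf3 was at 2.69 and 2.77 in ES and 1.85 to 2.28 in the clones (-0.37 in 3F+IL6; limma adjusted p = 0.0083, lost without ES replicate 2 at -0.36). The feedback genes Nkd1 and Rnf43, under the filter, were at 0.800 to 0.850 and 0.224 to 0.902 RPKM in the clones, above 0.203 to 0.263 and 0 to 0.138 in ES and MEF. Most other listed targets under the filter did not follow. Cdx2 was at 0.796 and 1.05 in ES and 0 to 0.0692 in the clones. Levels of Cdx1, Sp5, T and Mixl1 in the clones overlapped those in ES. Lgr5 was highest in MEF, at 0.190 and 0.244, and Sp8 did not exceed 0.0557 in any library.

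Genes known to be repressed by Tcf7l1 in ES cells were mostly lower in the clones than in ES. Of the 9, all tested, 0 were called higher and 7 lower in 3F+IL6, and 0 and 6 in 4F, with medians of -0.86 and -0.50; without 3F+IL6 clone 2, 1 was called higher. That is 77.8% and 66.7% lower, where 30.3% and 33.5% of all genes were. Against MEF all 9 were called higher in each pluripotent group, where 49.2% to 49.7% of all genes were, and 8 or 9 in 3F+IL6 when a library was left out. The list includes Pou5f1 and Klf4, which are also reprogramming factors. Esrrb was at 143 and 138 RPKM in ES, 58.2 and 68.6 in 3F+IL6, 77.3 and 77.7 in 4F and 0.0899 and 0.126 in MEF. Nanog was at 252 and 245 in ES, 131 and 151 in 3F+IL6 and 169 and 181 in 4F. Tfcp2l1 was at 34.1 and 35.1 in ES, 18.4 and 17.4 in 3F+IL6 and 27.3 and 26.9 in 4F, and was the member called between the kinds of clone (-0.57; limma adjusted p = 0.026), a call lost in the fit of only these 4 libraries (0.21) and without any one library of the ES, 4F or MEF groups (-0.58 to -0.56). Tcf7l1 itself was also lower in the clones than in ES, as given above.

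Of 18 tested cytoplasmic components of the pathway outside the 46, limma called 1 higher and 6 lower in 3F+IL6 than in ES, and 5 and 7 in 4F; leaving out a library moved the higher counts to between 0 and 3 and between 1 and 5. The list was called at 38.9% in 3F+IL6, below the 63.4% of all genes, and at 66.7% in 4F, near the 67.2% of all genes. Of 16 nuclear partners, it called 3 higher and 8 lower in 3F+IL6 than in ES, and 3 and 9 in 4F, with medians of -0.25 and -0.41; the 3 higher in 3F+IL6 became 1 without ES replicate 1 and 6 without 3F+IL6 clone 1. Its shares called were 68.8% and 75.0%, where those of all genes were 63.4% and 67.2%. Among these, the co-repressors of the Groucho family differed from one another. Tle4 was at 34.1 and 34.4 RPKM in ES, 19.1 and 18.7 in 3F+IL6, 12.7 and 14.4 in 4F and 4.01 and 4.20 in MEF, whereas Tle3 was at 20.5 and 21.5 in ES, 35.1 and 32.9 in 3F+IL6, 41.3 and 37.7 in 4F and 14.8 and 14.6 in MEF. Tle4 was called lower (-0.82 and -1.28) and Tle3 higher (0.67 and 0.88) in both kinds of clone than in ES.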

How the data were processed

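The 8 libraries were prepared from oligo-dT selected RNA with a TruSeq mRNA kit and read at 50 bp, per the labels' protocols. The genome build was mm10, per the submitters' processing notes, and neither the alignment and counting software nor the gene models are named in the sources used here. The authors deposited 1 RPKM value per symbol and library, computed by steps that the sources used here do not describe. The unit is not named in the files and was read from the values: low values times transcript length fall on steps of constant size in a library. Since only 53.7% to 58.6% of such values of up to 6 reads came out whole within 0.1 read, no counts were derived and no count model was fitted. One stray line per table was dropped.

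limma 3.58.1 in R 4.3.3 was run on log2(RPKM + 1), with trended variance, 4 group means and no replicate block, over the 13200 symbols with at least 1 RPKM in at least 2 libraries. Adjustment was by Benjamini-Hochberg over all of them, with a threshold of 0.05. The pseudocount of 1 understates changes of low genes. The median standard error was 0.102, with 6.94 degrees of freedom, and the fit was tested on simulated data. A fit without 1 library leaves its group with a lone sample, whose spread is taken from the other groups. All 46 genes may be named. From the other lists, genes called with small p and genes behind a count are named; Cer1 was picked out after its value in 3F+IL6 clone 2 was seen, and the mesendoderm list is given whole. The genes and lists were chosen with earlier results of these data known. Draxin, Tiki1, Tiki2, Trabd2b, Tbxt, Amer1 and Tle5 match no symbol in the tables, the last 3 of which are listed under older symbols. Gene positions are from GENCODE M21 and promoters from RefSeq.

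Alternatives changed the pseudocount, the filter, the scaling, the trend, the block, library weights, a term for libraries with at least 200 RPKM of 3 non-polyadenylated RNAs, and the libraries fitted. The summed level of these RNAs (Rn45s, Rpph1 and Rmrp) was 64.9 and 60.8 RPKM in 3F+IL6 and 610 and 596 in 4F. In ES it was 89.8 and 704 and in MEF 46.5 and 267, so this term also split the ES and the MEF duplicates.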

Additional observations from a re-analysis of the deposited data

How the results depend on the processing

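Of the 126 calls of Wnt genes over the 6 comparisons, 109 kept their direction and stayed under the threshold in each of up to 18 alternatives that tested them, 17 were lost in at least 1, and 0 were reversed. By comparison, calls kept were 0 of 2 for 3F+IL6 against 4F, 18 of 21 for 3F+IL6 against ES, 17 of 21 for 4F against ES, 24 of 28 for 3F+IL6 against MEF, 24 of 25 for 4F against MEF and 26 of 29 for ES against MEF. Of 216 recomputed counts, 189 were within 1.5 times the reported count and 27 were not. The 2 Wnt genes higher in 3F+IL6 than in 4F became 0 with a pseudocount of 0.1, array weights, the library class as a term, or only the 4 libraries compared, and 1 with no filter; the cause was not tested. Leaving out single libraries moved the higher count up as well as down, and the shares of all genes in such fits are not given. A filter on a mean of at least 5 RPKM, which tests fewer genes, gave 5 higher and 3 lower for 3F+IL6 against ES, 5 and 3 for 4F against ES, 9 and 2 for 3F+IL6 against MEF, 7 and 2 for 4F against MEF, and 7 and 4 for ES against MEF. Without single libraries the counts ran over 11 to 14 higher and 5 to 11 lower for 3F+IL6 against ES, 8 to 15 and 7 to 12 for 4F against ES, 14 to 16 and 8 to 14 for 3F+IL6 against MEF, 12 to 14 and 9 to 13 for 4F against MEF, and 10 to 13 and 11 to 16 for ES against MEF. The lowest count for 3F+IL6 against ES, 5, was without ES replicate 2, where Wnt6 and Fzd3 no longer passed the filter. Some differences that were not called became calls of opposite sign without 3F+IL6 clone 1 and without clone 2: Sfrp1 (0.33 and -0.47) and Porcn (-0.74 and 0.32) between 3F+IL6 and 4F, and Sfrp5 (0.76 and -1.13) between 3F+IL6 and ES. Scaling moved the median of all genes by -0.11 for 3F+IL6 against MEF with median centring, and by -0.20, -0.16 and -0.13 for 3F+IL6, 4F and ES against MEF with quantile normalization.

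Replicate numbers are shared by the groups but nothing in the labels ties them, and deviations of same-numbered libraries correlated at -0.06 to 0.21 over the 6 pairs of groups, so the numbers were not taken as pairs. With the replicate block, the 2 Wnt genes higher in 3F+IL6 than in 4F became 0, with 10 at an unadjusted p under 0.05, and those lower in 4F than in ES became 9. Every other count of Wnt genes was unchanged by the block. Depth is estimated and not stated, so no counting interval is given for single values.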
